A study of Mus musculus with 2 samples.

Results

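The insulin-like growth factor (IGF) axis was examined by single-cell RNA sequencing in cultures of primary pericytes (PCs) from mouse brain, the mural cells that wrap brain capillaries. It was followed through 10 genes chosen by symbol, of 31053 genes listed: the ligands *Igf1* and *Igf2*, the receptors *Igf1r* and *Igf2r*, and the binding proteins *Igfbp2* to *Igfbp7*. All 10 were listed in both libraries. One library held cells at passage 5 (PC5) and the other cells at passage 20 (PC20). Both cultures came from brains of 6 female wild-type C57BL/6N mice aged 6 to 8 weeks, with no allele or agent added, and were grown in endothelial cell growth medium for the first passages and then in pericyte medium on collagen. The deposited design names 1 isolation from 6 mice, whereas the methods of the study give each passage its own set of 6 pooled mice. With 1 library per passage, passage, isolation and library cannot be told apart, and no test between passages was possible.

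The IGF axis works outside the cell before it works inside it. IGF1 and IGF2 are secreted growth factors, and both act through the receptor tyrosine kinase IGF1R, which signals through insulin receptor substrates to the PI3K-AKT and RAS-MAPK pathways. IGF2R, the cation-independent mannose 6-phosphate receptor, has no kinase; it takes up IGF2 and carries lysosomal enzymes. Binding proteins IGFBP2 to IGFBP6 hold IGFs with high affinity and so set how much ligand reaches the receptor, while proteases cut them and free the ligand. IGFBP7 is a relative that binds IGFs weakly and lies in the vascular matrix.

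Cells passed if they had over 1000 genes and less than 20% of their UMIs (unique molecular identifiers, each marking 1 captured RNA molecule) from mitochondrial genes, which left 9950 cells in PC5 and 4749 in PC20. Their UMIs came to 223054273 in PC5 and to 191122251 in PC20, and the median depth was 21700 UMIs per cell in PC5 and 33424 in PC20. The libraries shared 20 cell barcodes. Levels are given as UMIs per 1000000 (CPM) of all UMIs summed over the kept cells of a library, with 95% intervals that cover counting error only. Shares of cells were counted after each cell was thinned to 10500 UMIs, which 8847 PC5 and 4474 PC20 cells allowed, unless given as before thinning. The detection limit of 10% of cells, set on members and pathway genes, was read before thinning, when PC20 cells were deeper. Of 11 pericyte markers, 8 in PC5 and 5 in PC20 exceeded the level of 3 UMIs, but only 6 and 4 were in at least 1% of thinned cells. The summed level of the 11 was 98.8 CPM in PC5, against 12.4 CPM in PC20. *Rgs5* had 0 UMIs in PC20, where 3 UMIs come to 0.0157 CPM and the 95% interval of a count of 0 reaches 0.0193 CPM. *Atp13a5* had 0 UMIs in both libraries, and *Abcc9* had 1 UMI in each. *Anpep* ran against the sum and was higher in PC20, at 3.00 against 1.93 CPM. The 5 fibroblast markers summed to 1877 CPM in PC5, against 107 CPM in PC20, and the 4 epithelial markers to 0.229 and 1012 CPM, nearly all of it *Krt18* and *Krt8*, with *Cdh1* at 0.131 CPM in PC20. Smooth muscle markers summed to 283 CPM in PC5 and 49.6 CPM in PC20. Endothelial markers summed to 199 and 74.1 CPM, mostly *Cdh5* in PC5 and *Flt1* in PC20. Of these only *Flt1* ran against the sum and was higher in PC20, by 4.20-fold. Astrocyte markers summed to 151 and 229 CPM, mostly *Slc4a4*, the only one of them that was higher in PC20. *Aldh1l1* was higher in PC5, with 1640 against 5 UMIs, as were *Gfap*, with 97 against 0, and *Aqp4*, with 28 against 1. The part of these marker differences in the IGF axis values was not tested.

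The 10 genes lie on 7 chromosomes in the GENCODE M21 annotation of GRCm38 (mm10). *Igfbp2* (chr1:72824503-72852474, plus strand) and *Igfbp5* (chr1:72857932-72874884, minus strand) are neighbours that face each other across 5.46 kb. *Igfbp3* (chr11:7206086-7213923, minus strand) lies 3.54 kb from *Igfbp1*, and *Igfbp4* (chr11:99041244-99054392, plus strand) lies elsewhere on the same chromosome. *Igfbp7* (chr5:77349240-77408041, minus strand) and *Igfbp6* (chr15:102144362-102149511, plus strand) stand apart from the rest. *Igf1* is at chr10:87858265-87937042 and *Igf1r* at chr7:67952827-68233668, both on the plus strand. *Igf2* (chr7:142650766-142666816, minus strand) lies 72.6 kb from the imprinted RNA gene *H19*, and *Igf2r* (chr17:12682406-12769664, minus strand) overlaps its antisense RNA gene *Airn* over 28.4 kb. The droplet chemistry keeps strand, so sense and antisense reads are in principle separable.

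Because *Igfbp2*, *Igfbp3*, *Igfbp4* and *Igfbp7* were the members that differed at least 2-fold between the libraries among those seen in at least 10% of cells, their promoters are shown as the 250 bases before the RefSeq start site (GRCm38.p6), read 5′ to 3′ along the gene. Capitals mark GC boxes (GGGCGG on either strand) and the TATA box TATAAA (either strand).
*Igfbp2* promoter, chr1:72824230-72824479, plus strand: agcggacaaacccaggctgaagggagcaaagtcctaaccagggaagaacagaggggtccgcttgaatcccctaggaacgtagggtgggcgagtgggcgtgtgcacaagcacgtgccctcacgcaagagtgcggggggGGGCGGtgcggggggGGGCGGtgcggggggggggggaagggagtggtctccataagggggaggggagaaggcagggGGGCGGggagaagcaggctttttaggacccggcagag
*Igfbp7* promoter, chr5:77408046-77408295, minus strand: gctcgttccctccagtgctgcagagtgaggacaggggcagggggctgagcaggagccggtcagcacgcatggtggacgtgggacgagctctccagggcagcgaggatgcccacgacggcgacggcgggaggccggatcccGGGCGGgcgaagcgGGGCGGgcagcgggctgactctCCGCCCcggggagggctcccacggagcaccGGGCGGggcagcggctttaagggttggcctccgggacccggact
*Igfbp3* promoter, chr11:7213924-7214173, minus strand: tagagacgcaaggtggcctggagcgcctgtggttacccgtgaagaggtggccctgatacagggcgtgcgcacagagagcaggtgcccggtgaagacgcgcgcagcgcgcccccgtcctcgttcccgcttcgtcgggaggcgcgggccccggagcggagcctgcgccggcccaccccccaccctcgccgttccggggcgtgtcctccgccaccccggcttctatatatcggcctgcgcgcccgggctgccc
*Igfbp4* promoter, chr11:99040994-99041243, plus strand: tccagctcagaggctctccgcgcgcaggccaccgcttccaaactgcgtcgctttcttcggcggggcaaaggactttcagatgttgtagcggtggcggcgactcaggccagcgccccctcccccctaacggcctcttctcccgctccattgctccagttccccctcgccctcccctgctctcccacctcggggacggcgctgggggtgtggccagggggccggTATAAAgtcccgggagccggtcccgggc
*Igfbp2*, which was higher in PC20, and *Igfbp7*, which was higher in PC5, both held GC boxes, with 3 in *Igfbp2* and 4 in *Igfbp7*. *Igfbp3* and *Igfbp4*, both higher in PC5, held none, and *Igfbp4* held 1 TATA box. The GC box was present in 4 of the 10 members' windows, against 32.7% of 32851 mouse promoter windows of the same length, and the TATA box in 2 of 10, against 12.4%. These are exact letter matches at any place in the window. The TATA match in *Igfbp6* was on the other strand. Near matches, such as tatatat in *Igfbp3*, were not marked or counted. The 4 windows shown held 14 CG dinucleotides in *Igfbp2*, 26 in *Igfbp7*, 32 in *Igfbp3* and 22 in *Igfbp4*, above the median of 6 over all windows. *Igfbp2* had the fewest CG dinucleotides of these 4. With only 1 gene higher in PC20, whether these letters go with the direction cannot be told and was not tested.

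The make-up of the binding-protein transcripts differed between PC5 and PC20. *Igfbp7*, *Igfbp3* and *Igfbp4* were the most abundant members in PC5 and were 29.0-fold, 5.06-fold and 4.45-fold lower in PC20. *Igfbp2* ran the other way and was 15.6-fold higher in PC20. The receptors *Igf1r* and *Igf2r* and the binding protein *Igfbp6* differed less than 2-fold, and the ligands *Igf1* and *Igf2* were rare in PC5 and nearly absent from PC20. Of the 10 members, 7 were detected (a UMI in 10% of cells or more before thinning, in one library or both). Of those 7, 3 were at least 2-fold higher in PC5, where 17.9% of 10504 genes so detected were, and 1 was at least 2-fold higher in PC20, where 19.1% of genes were; 37% of genes were past 2-fold in either direction. *Igfbp2* passed the detection limit only through PC20, in which it was high. After thinning, *Igfbp7* too was above 10% only in the library in which it was high, with 6.48% of PC20 cells. The median log2 ratio of PC5 over PC20 was 0.95 over the 7 members and -0.03 over all genes detected at that limit. With no detection limit, 6 of the 10 members were at least 2-fold higher in PC5, 1 was higher in PC20 and 3 differed less. Among 18294 genes with more than 3 UMIs in either library, the shares were 29.3% and 20.3%, or 49.6% in either direction.

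**Figure D1:**
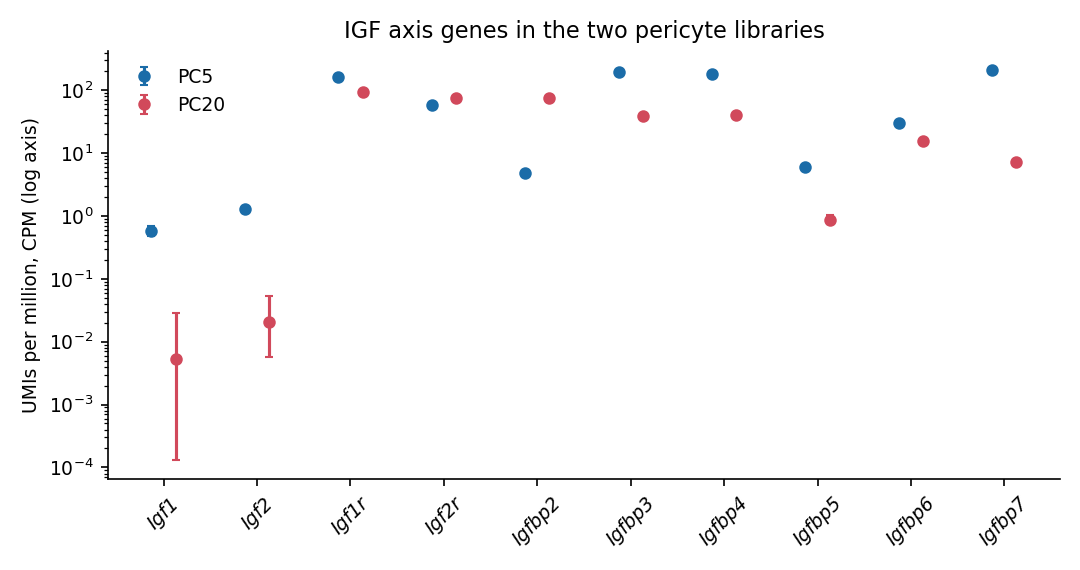
Level of each IGF axis gene in CPM (log axis) in the PC5 library (blue) and the PC20 library (red); points are 1 library each and bars are exact 95% Poisson intervals, mostly smaller than the point. *Igfbp2* is the member for which PC20 lies far above PC5, 76.2 against 4.87 CPM, while *Igfbp7* shows the reverse, 7.14 against 207 CPM.

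The ligands were barely transcribed in either culture. *Igf1* had 128 UMIs in 113 of 9950 PC5 cells, or 0.574 CPM (0.479 to 0.682), and 1 UMI in PC20, or 0.00523 CPM (0.000132 to 0.0292). *Igf2* had 284 UMIs in 227 PC5 cells, or 1.27 CPM (1.13 to 1.43), and 4 UMIs in 4 PC20 cells, or 0.0209 CPM (0.00570 to 0.0536). Both ligands were thus higher in PC5, with log2 ratios of 6.78 (95% interval 4.27 to 12.09) for *Igf1* and 5.93 (4.55 to 7.81) for *Igf2*. At equal depth, 0.644% of PC5 cells held *Igf1* and 1.28% held *Igf2*. Of 4474 PC20 cells, 0 held either (3 cells would be 0.0671%, and the 95% interval reached 0.0824%). Without thinning, the shares of cells were 1.14% for *Igf1* and 2.28% for *Igf2* in PC5, and 0.0211% and 0.0842% in PC20. Among 3 neuronal markers, the highest unthinned share was 0.121% in PC5 and 0.0421% in PC20. These markers were themselves nearly absent, with a summed level of 0.121 CPM in PC5 and 0.0314 CPM in PC20. Their shares therefore cannot show how much of the ligand signal came from free RNA, which was not tested.

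The PC5 cells that held a ligand differed from the other PC5 cells in some members. The 113 PC5 cells with an *Igf1* UMI had *Igfbp3* at 530 CPM against 190 CPM in the other PC5 cells, at a median depth of 20221 against 21710 UMIs. Their *Igfbp5* level was 44.5 against 5.54 CPM, but only 7 of them held an *Igfbp5* UMI, and without the 1 cell that held 71 of the 111 UMIs it was 16.2 CPM. Their *Igfbp4* level was lower, at 110 against 183 CPM. They held 3 UMIs of the macrophage receptor gene *Csf1r*, at 1.20 against 0.512 CPM (log2 ratio 1.23, counting interval -1.07 to 2.81). The leukocyte gene *Ptprc* had 0 UMIs in them and 1 in the other PC5 cells. The fibroblast marker *Pdgfra*, at 131 against 88.1 CPM, and the pericyte marker *Pdgfrb*, at 64.5 against 44.3 CPM, were both higher in them. The smooth muscle marker *Acta2* was lower, at 46.1 against 63.0 CPM, and *Tagln* was at 208 against 220 CPM. The 227 PC5 cells with an *Igf2* UMI had a median depth of 24166 against 21625 UMIs. They had more of the imprinted neighbour *H19*, at 55.9 against 20.5 CPM. *Igfbp4*, at 229 against 181 CPM, and *Igf2r*, at 72.3 against 58.7 CPM, were also higher in them. *Igfbp6* was lower, at 20.7 against 30.7 CPM. As in the cells with *Igf1*, *Acta2* was lower, at 43.0 against 63.4 CPM, and *Pdgfra* was higher, at 99.3 against 88.3 CPM. *Tagln* was at 145 against 221 CPM and *Pdgfrb* at 52.0 against 44.4 CPM. *Igfbp3* was at 204 against 194 CPM and *Igfbp5* at 5.00 against 6.00 CPM. Cells of 1 library are not replicates, and these differences were not tested.

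Both receptors were widely detected in both libraries. *Igf1r* stood at 162 CPM (160 to 164) in PC5, against 93.1 CPM (91.7 to 94.5) in PC20, for a log2 ratio of 0.80 (0.77 to 0.82). It was seen in 76.3% of thinned PC5 cells and 58.8% of thinned PC20 cells, and in 87.1% and 85.7% before thinning. *Igf2r* stood at 59.0 CPM (58.0 to 60.1) in PC5, against 74.3 CPM (73.1 to 75.5) in PC20, for a log2 ratio of -0.33 (-0.37 to -0.30). It was seen in 43.6% of thinned PC5 cells and 49.8% of thinned PC20 cells, and in 64.0% and 80.6% before thinning. The receptors therefore ran in opposite directions between the libraries, each by less than 2-fold. Among cells with 20000 to 30000 UMIs the log2 ratio was 0.98 for *Igf1r* and only -0.13 for *Igf2r*. *Airn*, the antisense RNA known for silencing the paternal copy of *Igf2r*, was 4.21-fold higher in PC20, at 10.6 against 2.51 CPM.

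*Igfbp7* was the most abundant member in PC5 and, after *Igf1*, *Igf2* and *Igfbp5*, the least abundant in PC20. It had 46232 UMIs in PC5, or 207 CPM (205 to 209), and 1365 UMIs in PC20, or 7.14 CPM (6.77 to 7.53), for a log2 ratio of 4.86 (4.78 to 4.94). The gene was detected in 82.1% of thinned PC5 cells and 6.48% of thinned PC20 cells (91.9% and 17.1% before thinning). Its distribution was broad in PC5, where 45.1% of thinned cells held 2 to 4 UMIs and 11.6% held 5 to 9, and it took 2314 cells to hold 50% of its UMIs.

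*Igfbp3*, whose product is the main IGF carrier in blood, had 194 CPM (192 to 196) in PC5, against 38.4 CPM (37.5 to 39.3) in PC20, for a log2 ratio of 2.34 (2.30 to 2.37). *Igfbp4*, a target of the protease PAPP-A, had 183 CPM (181 to 184) in PC5, against 41.0 CPM (40.1 to 41.9) in PC20, for a log2 ratio of 2.15 (2.12 to 2.19). At equal depth *Igfbp3* was seen in 49.9% of PC5 and 28.7% of PC20 cells (61.8% and 55.8% before thinning), and *Igfbp4* in 54.8% and 25.5% (66.4% and 49.5% before thinning). Unlike *Igfbp7*, both were uneven among PC5 cells. At least 10 UMIs of *Igfbp3* were held by 5.71% of thinned PC5 cells, while no thinned PC20 cell held more than 9, and for *Igfbp4* the shares were 3.41% and 0.246%. The variance of thinned UMIs over their mean was 14.4 for *Igfbp3* and 5.37 for *Igfbp4* in PC5, against 1.88 for *Igfbp7*.

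*Igfbp2*, an IGF carrier abundant in developing brain, had 1087 UMIs in PC5, or 4.87 CPM (4.59 to 5.17), and 14569 UMIs in PC20, or 76.2 CPM (75.0 to 77.5), for a log2 ratio of -3.97 (-4.06 to -3.88). It was detected in 2.40% of thinned PC5 cells and 38.7% of thinned PC20 cells (4.41% and 62.7% before thinning). In PC5 44 cells held 50% of its UMIs, whereas in PC20 394 cells did. A cluster of 30 PC5 cells, led by *Mt3*, *Gfap* and *Fabp7*, held 36.6% of the PC5 *Igfbp2* UMIs, at 915 CPM (827 to 1009). Without it, *Igfbp2* in PC5 was 3.09 CPM (2.87 to 3.33) and the log2 ratio -4.62 (-4.73 to -4.51). *Gfap* is an astrocyte marker, and its part in the PC5 *Igfbp2* level beyond this value was not tested.

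*Igfbp6*, which prefers IGF2 over IGF1, had 30.4 CPM (29.7 to 31.1) in PC5, against 15.7 CPM (15.2 to 16.3) in PC20, for a log2 ratio of 0.95 (0.89 to 1.01). It was seen in 26.1% of thinned PC5 and 14.4% of thinned PC20 cells (43.9% and 34.9% before thinning). Among cells that had between 20000 and 30000 UMIs the log2 ratio of *Igfbp6* was 0.37. *Igfbp5*, a binding protein that attaches to extracellular matrix, had 5.97 CPM (5.66 to 6.30) in PC5, against 0.879 CPM (0.751 to 1.02) in PC20, for a log2 ratio of 2.76 (2.53 to 3.00). It was the most concentrated member in both libraries apart from the ligands in PC20. Only 1.23% of thinned PC5 cells and 0.358% of thinned PC20 cells held a UMI (1.70% and 0.969% before thinning), 12 PC5 cells held 50% of its UMIs, and a single PC20 cell held 85 of 168. Without the cell with the most *Igfbp5* UMIs in each library the log2 ratio was 3.62.

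**Figure D2:**
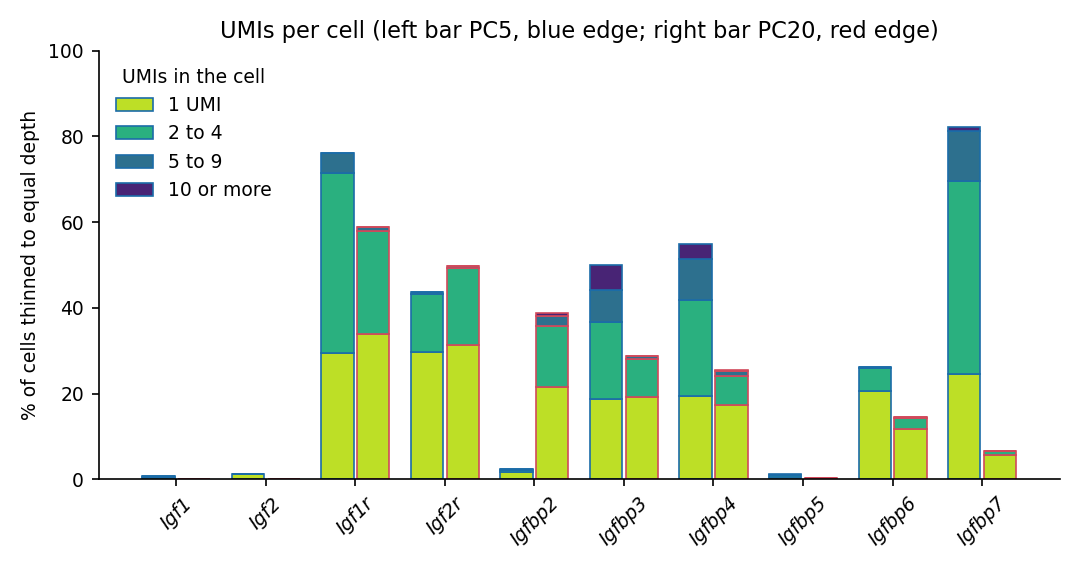
Share of cells (%) with 1, 2 to 4, 5 to 9 or at least 10 UMIs of each IGF axis gene after thinning every cell to 10500 UMIs, with PC5 as the left bar (blue edge, 8847 cells) and PC20 as the right bar (red edge, 4474 cells). *Igfbp7* fills 82.1% of PC5 cells mostly at 2 to 4 UMIs, whereas *Igfbp3* fills 49.9% with a tail of 5.71% at 10 or more.

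The binding-protein pool differed in both its make-up and its size. Since the chemistry tags 1 end of each RNA, UMIs of different genes were not scaled by length. The shares below are shares of UMIs, and differences between genes in capture were not measured. The 6 binding proteins summed to 625 CPM (622 to 629) in PC5, against 179 CPM (177 to 181) in PC20, a gap of 3.49-fold. In PC5 the pool was 33.2% *Igfbp7*, 31.1% *Igfbp3* and 29.2% *Igfbp4*, with 0.779% *Igfbp2*. In PC20 it was 42.5% *Igfbp2*, 22.9% *Igfbp4* and 21.4% *Igfbp3*, with 3.98% *Igfbp7*. *Igfbp6* held 4.86% of the pool in PC5 and 8.77% in PC20, and *Igfbp5* 0.955% and 0.490%. Without *Igfbp2*, which ran the other way, the other 5 summed to 620 CPM in PC5, against 103 CPM in PC20, a gap of 6.01-fold. Both sums include *Igfbp7*, whose product binds IGFs weakly and which was 33.2% of the PC5 pool. Neither gap is therefore that of the high-affinity binding proteins alone, which was not calculated.

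**Figure D3:**
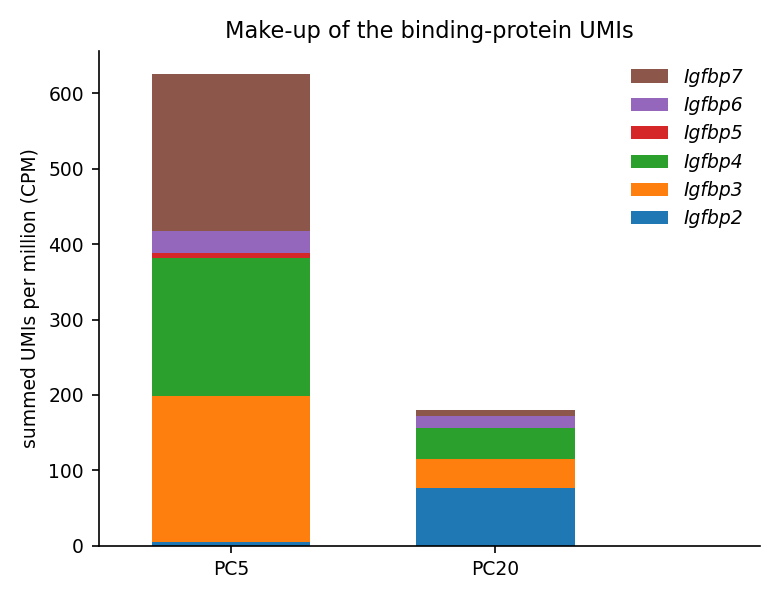
Summed level of the 6 binding-protein genes in CPM in each library, stacked by gene. The PC5 bar reaches 625 CPM in 3 near-equal blocks of *Igfbp7*, *Igfbp3* and *Igfbp4*, and the PC20 bar reaches 179 CPM with *Igfbp2* as its largest block.

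Each library was then clustered alone with the 10 members left out, which gave 13 clusters in each; 12 in PC5 and 13 in PC20 had at least 50 cells. No cluster had among its 10 leading genes 3 markers from any of the short marker lists used here, which hold 3 to 11 genes per cell type, so clusters are called by leading genes. The 30-cell PC5 cluster led by *Mt3*, *Gfap* and *Fabp7*, genes known from astroglia and neural progenitors, also counted *Sox2*, *Olig1* and *Mlc1* among its leading genes, though only *Gfap* is in the astrocyte list. Ranges below leave out this cluster, as having under 50 cells, and 1 PC5 and 2 PC20 clusters whose median depth was over 3 times lower than their library's, which leaves 11 in each. Clusters of 1 library are not replicates, and their values describe the spread within a culture.
The 30-cell cluster stood outside the PC5 ranges for most members. It had *Igfbp3* at 2586 CPM (2437 to 2742), *Igfbp5* at 98.9 CPM (71.5 to 133) and *Igf1r* at 287 CPM (239 to 342), above the other PC5 clusters. It had *Igfbp7* at 64.4 CPM (42.8 to 93.0) and *Igfbp6* at 9.20 CPM (2.51 to 23.5), below the 11 clusters compared.
*Igfbp7* and *Igfbp6* were even across those 11 PC5 clusters. *Igfbp7* ranged from 168 to 278 CPM over the 11 PC5 clusters and from 3.38 to 18.1 CPM over the 11 PC20 clusters. *Igfbp6* ranged from 24.0 to 39.5 CPM in PC5 and from 9.04 to 23.1 CPM in PC20. *Igfbp2* ranged from 0.696 to 6.46 CPM in PC5, apart from the 30-cell cluster, and from 26.4 to 240 CPM in PC20. *Igfbp3* ranged from 53.3 to 512 CPM in PC5 and from 20.9 to 61.1 CPM in PC20. For *Igfbp4* the ranges were 48.6 to 323 and 14.5 to 203 CPM. How often such ranges overlap between the libraries over all genes was not counted.
Among the 11, *Igfbp3* and *Igfbp4* peaked in different PC5 clusters. Apart from the 30-cell cluster, *Igfbp3* was highest, at 512 CPM, in a cluster of 1093 cells led by *Trf*, *Mmp3* and *Il33*, and next, at 397 CPM, in a cluster of 1059 cells led by *Xlr*, *Snhg11* and *Mgp*. *Igfbp4* was lowest in the latter, at 48.6 CPM, and highest in a cluster of 924 cells led by *Hgf*, *Il33* and *Add2*, at 323 CPM. The first pair of clusters also held 46.8% and 25.4% of the PC5 *Igfbp5* UMIs (the first at 32.2 CPM, or 25.1 CPM without the cell that held 138 UMIs) and 23.4% and 38.3% of the *Igf1* UMIs. *Igf2* split them, with 3.46 CPM in the *Trf* cluster and 0.189 CPM in the *Xlr* cluster, as did *Igf2r*, with 115 and 28.6 CPM. *Igf1r* varied little, from 119 to 199 CPM over the PC5 clusters and from 72.7 to 121 CPM over the PC20 clusters.
In PC20 a cluster of 235 cells led by *Cdo1* and *Bgn* was highest among the 11 for *Igfbp2*, at 240 CPM, *Igfbp4*, at 203 CPM, *Igf2r*, at 147 CPM, and *Igfbp7*, at 18.1 CPM. Its *Igfbp5* level of 10.1 CPM rested on the single cell with 85 UMIs and was 1.61 CPM without it, below the 2.05 CPM of a cluster led by *Txnip*, *Elf3* and *Ctla2a*. For *Igfbp4* the next cluster had 57.7 CPM, while for *Igfbp7* the next, led by *Sult1a1*, *Ogn* and *Cox6b2*, had 17.5 CPM, within counting error. The cluster was 4.95% of PC20 cells and held 25.9% of the *Igfbp4* UMIs and 16.5% of the *Igfbp2* UMIs.

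**Figure D4:**
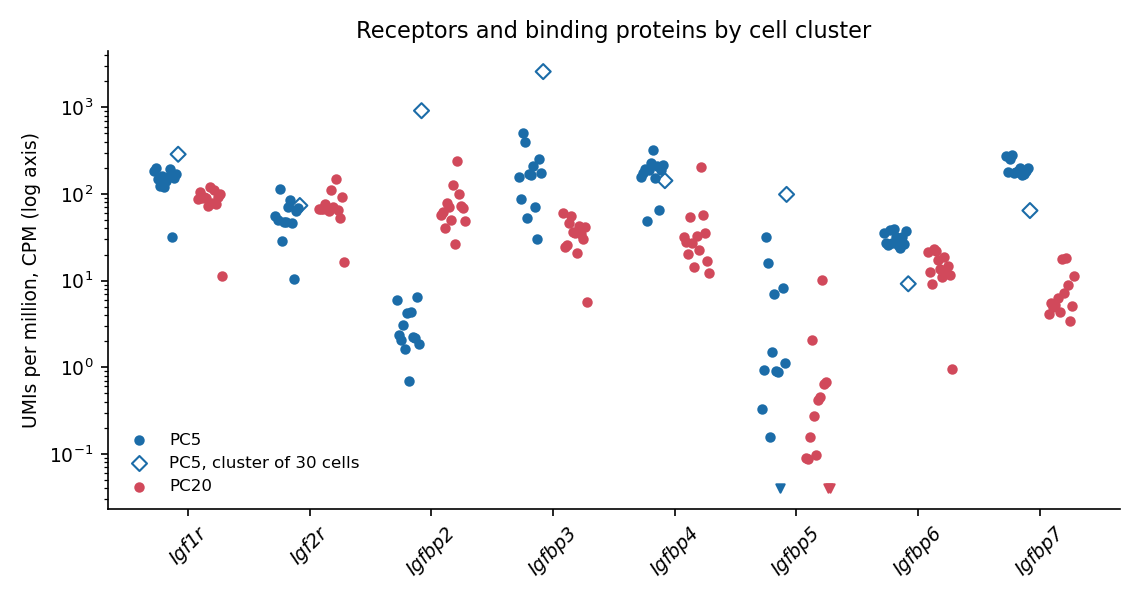
Level of the receptors and binding proteins in CPM (log axis) in each cell cluster of PC5 (blue) and PC20 (red); dots are clusters of at least 50 cells, the open diamond is the 30-cell PC5 cluster, and triangles at the bottom edge are clusters with 0 UMIs. The diamond for *Igfbp2* stands at 915 CPM, and a single PC20 dot for *Igfbp4* stands at 203 CPM.

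The libraries also differed in proliferation, so the members were read in cells with and without a UMI of the dividing-cell genes *Mki67* or *Top2a*, which 35.4% of thinned PC5 and 57.9% of thinned PC20 cells held. *Igfbp3* was lower in the cells with such a UMI, at 119 against 271 CPM in PC5 and at 36.3 against 49.8 CPM in PC20. *Igfbp5* was lower too, at 2.62 against 7.38 CPM in PC5. *Igf1* in PC5 stood at 0.335 against 0.916 CPM. *Igf1r* in PC5 was slightly higher in cells with such a UMI, at 175 against 151 CPM, and *Igfbp7* slightly lower, at 194 against 228 CPM. When all kept cells were split in this way without thinning, the log2 ratio of *Igfbp3* between the libraries was 1.73 among cells with such a UMI and 2.49 among cells without, and that of *Igfbp5* was 2.95 and 1.66. A single PC20 cell held 85 of the 168 PC20 *Igfbp5* UMIs, so the *Igfbp5* values depend on the group that holds it. All 10 members kept their direction between the libraries in the settings that gave a value.

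Within a library the members correlated weakly from cell to cell. Across thinned cells the highest Pearson correlation between members seen in at least 25% of them was 0.20, for *Igfbp2* and *Igfbp4* over 4474 PC20 cells. Among all genes seen in at least 10% of cells, only the 3 most like each member were kept. Where all 3 passed 0.3, as for *Igfbp4* in PC20, further genes may pass it too. Those kept with r of at least 0.3 are named here. In PC5 they were *Ccl2*, a monocyte chemokine, for *Igfbp4* (r = 0.345), and the mannosidase gene *Man1a* for *Igfbp3* (r = 0.307). In PC20 they were *Ckb* (0.363), *Mgp* (0.355) and *Cp* (0.352) for *Igfbp4*, and *Tmsb4x* (0.306) and *Mgp* (0.305) for *Igfbp2*. *Mgp*, a matrix gene that restrains calcification, was thus near both *Igfbp2* and *Igfbp4* in PC20, whereas in PC5 it was the gene least like *Igfbp4* (r = -0.224). The cells of a library share its depth and free RNA, and these values are descriptions. Counts were also low, with member means from 0.331 UMIs per thinned cell (*Igfbp6* in PC5) to 2.28 (*Igfbp3* in PC5). Low counts reduce the size of r, so a low r does not show that members vary apart.

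The rest of the pathway was followed through 81 genes, of which 80 were listed and 60 passed the same detection limit. Of those 60, 16 were at least 2-fold higher in PC5, against 17.9% of all genes, 10 were at least 2-fold higher in PC20, against 19.1%, and 34 differed less. Of the 26 past 2-fold, 13 passed the detection limit only through the library in which they were high. The limit was read before thinning. After it some of the 60 were under 10% in both libraries, such as *Lrp2*, at 3.52% in PC5 and 8.72% in PC20. The median log2 ratio of the 60 was 0.30. Other ligands and binding proteins were below the level of 3 UMIs or at it in both libraries. *Ins1*, *Ins2* and *Igfbp1* had 0 UMIs, and *Igfals*, a part of the circulating IGF complex, had 3 UMIs in PC5 and 0 in PC20.

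The insulin receptor substrates ran in opposite directions. *Irs1* was at 31.5 CPM in PC5, against 1.50 CPM in PC20, for a log2 ratio of 4.40 (4.22 to 4.57), and *Irs2* was at 4.68 and 55.9 CPM, for a log2 ratio of -3.58 (-3.67 to -3.49). *Insr*, the insulin receptor gene, was at 12.3 CPM in PC5, against 19.3 CPM in PC20. *Grb10*, an adaptor that restrains the insulin and IGF1 receptors, was higher in PC5 at 43.5 against 4.78 CPM. The endocytic receptor gene *Lrp1* was also higher in PC5, at 336 against 110 CPM, as was the adaptor gene *Shc1*, at 103 against 38.3 CPM. Of 11 expressed receptors and adaptors, 4 were at least 2-fold higher in PC5 and 2 in PC20, against 17.9% and 19.1% of all genes. Of those 6, *Irs1*, *Irs2*, *Grb10* and *Lrp2* passed the detection limit only through the library in which they were high.

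In the kinase cascade 25 of 32 expressed genes differed less than 2-fold, as did 63.0% of all 10504 genes. The PI3K regulatory subunit gene *Pik3r3* stood out at 25.5 CPM in PC5, against 0.743 CPM in PC20, for a log2 ratio of 5.10 (4.86 to 5.35), and was detected at the limit in PC5 alone. *Akt1*, at 136 against 53.0 CPM, and *Hras*, at 180 against 76.1 CPM, were also higher in PC5. *Eif4ebp1*, a translation repressor under mTOR, was higher in PC20, at 897 against 238 CPM, as were *Rheb*, the activator of mTOR, at 216 against 105 CPM, and the PI3K catalytic subunit gene *Pik3cb*, at 19.6 against 8.31 CPM.

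Of the proteases of the binding proteins and their inhibitors, 7 of 8 expressed genes were at least 2-fold apart, against 37% of all genes. Of those 7, *Stc1*, *Mmp3*, *Stc2* and *Pappa* passed the detection limit only through the library in which they were high. The 4 that were higher in PC5 were *Stc1*, at 59.7 against 1.06 CPM, *Mmp3*, at 32.5 against 0.738 CPM, *Mmp2*, at 112 against 7.73 CPM, and *Adam12*, at 70.3 against 15.5 CPM. The 3 that were higher in PC20 were *Stc2*, at 21.5 against 4.51 CPM, *Htra1*, at 205 against 91.3 CPM, and *Pappa*, at 5.61 against 1.80 CPM. *Pappa* encodes PAPP-A, the protease that cuts IGFBP4, and *Stc1* and *Stc2* encode its stanniocalcin inhibitors, which therefore differed in opposite directions. *Ctsd*, the cathepsin D gene, was the most abundant of the group at 419 CPM in PC5, against 382 CPM in PC20.

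Among RNA regulators and imprinted neighbours, *Igf2bp3*, which encodes an RNA-binding protein that binds *Igf2* transcripts, was higher in PC5, at 16.1 against 1.96 CPM, as was *H19*, at 21.3 against 2.27 CPM. *Igf2bp2* was at 79.3 CPM in PC5, against 66.0 CPM in PC20. Of the genes that encode an IGF-binding-protein-like domain, *Ctgf*, a matricellular protein gene, was 44.3-fold higher in PC5, at 238 against 5.37 CPM, and *Wisp1* 2.87-fold higher, at 19.1 against 6.66 CPM. *Crim1* was 3.19-fold higher in PC20, at 190 against 59.5 CPM, and *Cyr61*, a close relative of *Ctgf*, was at 114 and 106 CPM. Of 5 expressed RNA regulators and imprinted neighbours, 2 were at least 2-fold higher in PC5 and 1 in PC20. Among 4 expressed genes with the domain the counts were also 2 and 1, against 17.9% and 19.1% of all genes. *Igf2bp3*, *H19*, *Airn* and *Ctgf* passed the detection limit only through the library in which they were high.

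**Figure D5:**
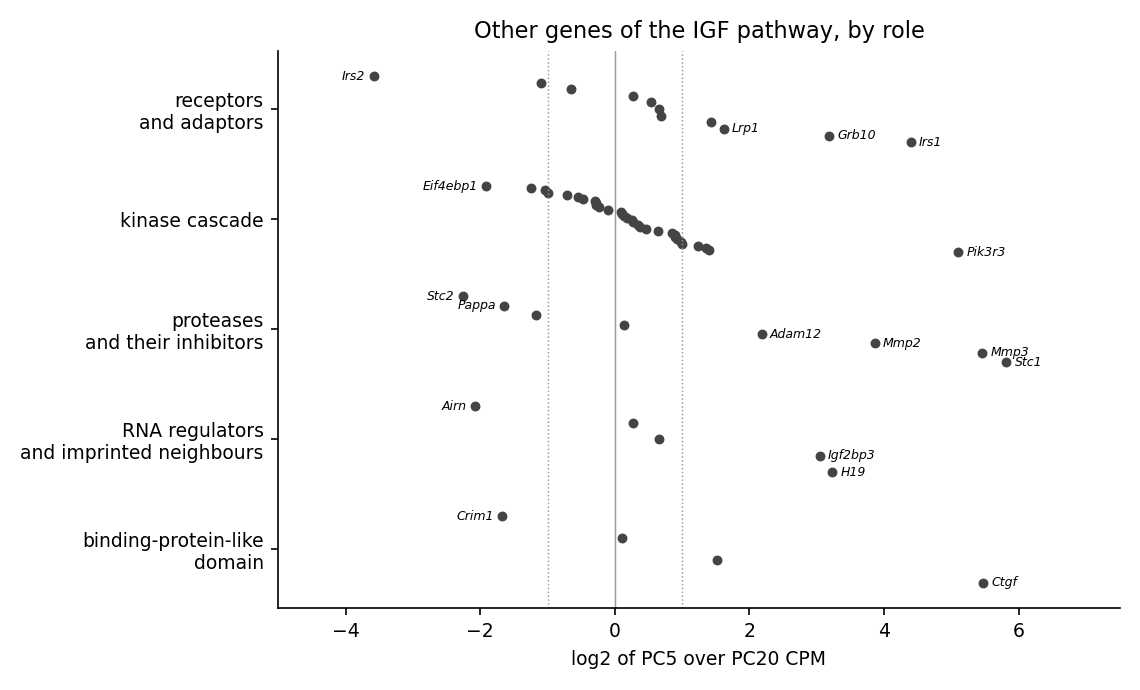
Log2 ratio of PC5 over PC20 CPM for the 60 expressed genes of the wider IGF pathway, 1 point per gene, grouped by role; dotted lines mark 2-fold and genes past 3-fold are named. *Irs1* (4.40) and *Irs2* (-3.58) stand at opposite ends of the receptors and adaptors, while 25 of the 32 kinase cascade genes lie between the dotted lines.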

How the data were processed

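PCs cultured from mouse brain were profiled by single-cell RNA sequencing, in 1 library per passage, grouped as the labels give it. The deposited matrices hold raw UMI counts, which the authors obtained with Cell Ranger 5.0 on mm10 from 3′ droplet libraries, without normalization. A filter of over 1000 genes and less than 20% mitochondrial UMIs per cell left out 679 PC5 and 135 PC20 barcodes. Doublets were not called or removed. Levels in CPM used UMIs summed over kept cells, so that deeper cells weigh more. The log2 ratio is PC5 over PC20 with no pseudocount. Intervals at the 95% level are exact Poisson (CPM), conditional binomial (ratios) or Clopper-Pearson (shares) and cover counting error only. PCR and capture error and the spread between cultures are not in them. Counts of genes past 2-fold used genes with a UMI in at least 10% of cells of either library before thinning.

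Thinning drew 10500 UMIs per cell without replacement, and 1103 PC5 and 275 PC20 cells were too shallow for it. Clusters came from Seurat 5.3.0 in R 4.3.3, for each library alone, with 2000 variable genes, the members left out, regression of mitochondrial and ribosomal percentages, 15 dimensions and resolution 0.8. Likeness was Pearson's r on the natural log of thinned UMIs scaled to 10000. Scripts ran in Python 3.11.15 with SciPy 1.17.1 and were tested on simulated data. Identifiers were matched to GENCODE M21, which held 31011 of 31053. RefSeq promoter windows matched all 10 members.

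The members and gene lists were chosen with earlier results of these data known. Named were all 10 members, pathway genes past 2-fold with at least 10 CPM in the higher library, *Insr*, the most abundant gene of each role, and the top 3 genes by likeness where r was at least 0.3. *Lrp2*, *Pappa*, *Cyr61*, *Igfals*, *Igfbp1*, *Ins1*, *Ins2*, the genes compared in ligand-holding cells and the leading genes of clusters fall partly outside this rule. Alternatives were other cell filters, depth ranges, thinning, scalings, a pseudocount of 1 CPM, and detection limits of 1% of cells or none. Freshly isolated adult and embryonic cells were not used here.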

Additional observations from a re-analysis of the deposited data

Results flagged for a closer look

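*Igfbp4* differed in direction between the libraries when cells with a *Mki67* or *Top2a* UMI were set against cells without one. The log2 ratio was 0.22 in PC5 (199.5 against 171 CPM) and -0.52 in PC20 (35.4 against 50.7 CPM). The difference between the libraries was not tested, since each passage had 1 library.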

How the results depend on the processing

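All log2 ratios of the 10 members kept their direction in every alternative that gave a value; *Igf1* and *Igf2* had 0 PC20 UMIs in some and gave none there. The number of members at least 2-fold higher in PC5 was 3 and became 6 with detection in 1% of cells and 6 with no filter on low values, by adding the low genes *Igf1*, *Igf2* and *Igfbp5*. The number of other pathway genes at least 2-fold higher in PC5 went from 16 to 25 with no filter on low values. The share over all genes rose too, from 17.9% to 29.3% of 18294 genes with more than 3 UMIs in either library. The 6 and the 25 had no such floor, and the share at 1% of cells is not given here. Among cells with 20000 to 30000 UMIs, 22 pathway genes were higher in PC5 and 8 in PC20, without a matching share over all genes. With a pseudocount of 1 CPM the log2 ratio became 0.65 for *Igf1* and 1.15 for *Igf2*, which that pseudocount shrinks. Leaving out the 30-cell PC5 cluster and leaving out the cell with the most UMIs of a gene were chosen after seeing the data, and both left the counts of 3 and 1 members as they were. The log2 ratio of *Igfbp2* ranged from -4.62 to -3.46, of *Igfbp7* from 4.68 to 5.12, of *Igfbp3* from 1.73 to 2.49, of *Igfbp4* from 1.71 to 2.35, and of *Igfbp5* from 1.66 to 3.62. The low end for *Igfbp5* was in cells without a *Mki67* or *Top2a* UMI. Its high end left out the cell with the most UMIs in each library. That of *Igf1r* ranged from 0.72 to 0.98, of *Igf2r* from -0.47 to -0.13, and of *Igfbp6* from 0.37 to 0.99. No paired analysis was possible because each passage had 1 library, and no replicate could be left out. Depth limits the ligands in PC20, where 3 UMIs correspond to 0.0157 CPM.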
